A study of Mus musculus with 18 samples.

Results

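The genes described here encode chemokines and chemokine receptors and were measured by microarray in whole mouse thyroids. They are the genes whose symbol begins with Ccl, Cxcl, Ccr or Cxcr and a digit, together with Cx3cl1, Cx3cr1 and Xcl1, that had a probe well above background on at least 4 of 18 arrays. Counts of members leave out a few of the family. Well above background is a flag that the scanner's image software sets for each spot. The rule kept 46 genes of the 17929 tested. Of 55 such genes in the mouse gene table, 49 had a matched probe. No probe was matched here for Cxcl11, Ccl26, Ccl21b, Ccl21c, Ccl21d and Ccl27b. Ccl22, seen on 1 array, and Cxcl3 and Cxcl5, seen on 0, fell below the detection rule. Just inside it were Cxcr5, detected on 4 arrays, and Ccr8, detected on 5. All 18 arrays detected 23 of the 46 members.

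Chemokines are small secreted proteins that bind G protein-coupled receptors on leukocytes and guide their movement into and within tissues. Inflammatory ligands are induced by cytokines and recruit monocytes, neutrophils or T cells, whereas homeostatic ligands position lymphocytes and dendritic cells in resting tissue. In the thyroid they are known mainly from the leukocyte infiltrates of autoimmune thyroid disease. Glis3 is a zinc finger transcription factor that thyroid follicular cells need to make thyroid hormone when thyrotropin is raised, and a low-iodine diet raises thyrotropin.

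The mice were C57BL/6, 1 month old and weaned at 3 weeks. The low-iodine groups were 4 Glis3KO2 (KO2) and 4 WT mice kept on a low-iodine chow from Harlan for 6 days, and the normal-diet groups were 5 KO2 and 5 WT mice kept on NIH31 chow. KO2 mice carry a targeted Glis3 allele whose deleted part is not given in the sources used here, and neither is the sex of the mice. Each array held 1 sample of thyroid RNA amplified from 50 ng. The labels do not say whether a sample was pooled from several mice, and each was read as 1 mouse.

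A level is the log2 of a probe's processed signal minus the log2 of that array's 75th percentile, so that a gene at the 75th percentile reads 0. Spots well above background made up 60.1% to 75.7% of a normal-diet array and 76.7% to 90.6% of a low-iodine array. Levels correlated across genes at 0.944 to 0.988 within a group. The WT low-iodine replicate 2 array stood apart: its median signal was 191.5, against 61.6 to 85.5 on the other 7 low-iodine arrays, and it gave the highest level of its group for 32 of the 46 members and for 44.2% of all genes. WT normal-diet replicate 2 gave the highest level of its group for 34 members and for 28.6% of all genes. Every slide held both genotypes in equal number. Slides and scanner changed with the diet, so what belongs to the diet and what to the arrays cannot be told apart. The single Glis3 probe lay between −4.06 and −1.49 on KO2 and between −1.60 and −0.74 on WT low-iodine arrays, and between −5.46 and −4.16 on KO2 and between −6.08 and −4.78 on WT normal-diet arrays. That probe may lie outside the deleted part and so checks nothing. Follicular cell markers (7 genes) averaged 3.11 to 4.61 on the 18 arrays. In whole tissue, fewer cells of a type and less RNA per cell cannot be told apart.

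**Figure D1:**
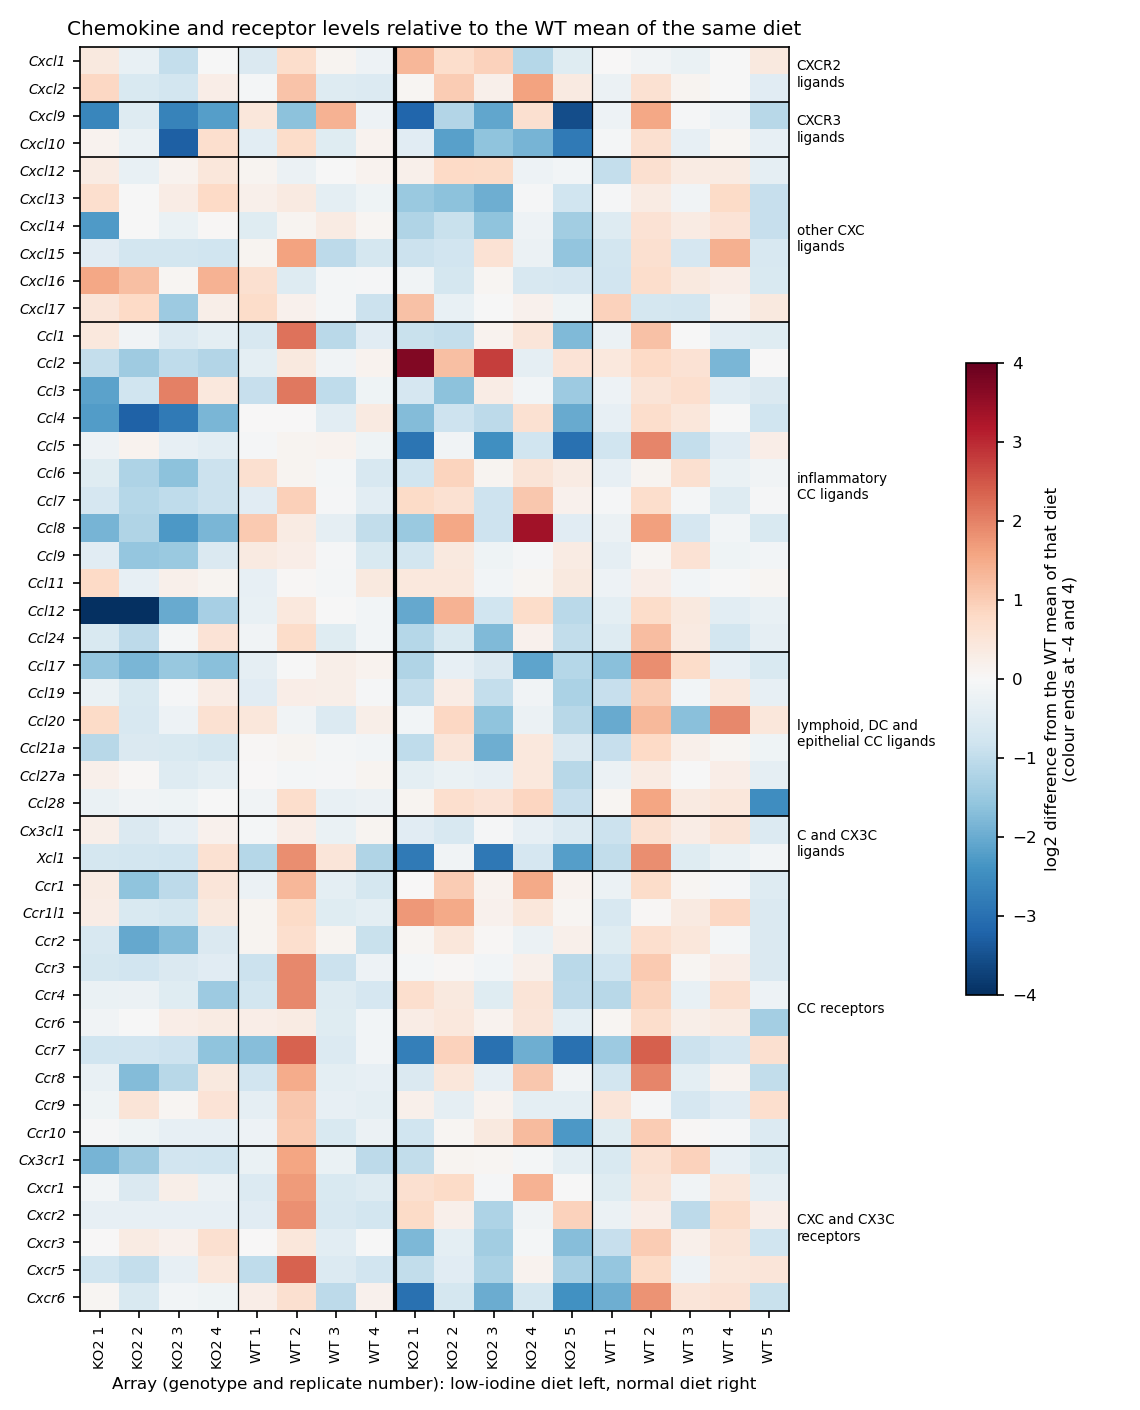
Each row is 1 of the 46 members, grouped by role, and each column is 1 array; colour gives the log2 difference from the WT mean of the same diet. On the low-iodine diet the KO2 columns were bluest at Ccl12, Ccl4, Cxcl9 and Ccl8, and on the normal diet at Ccr7, Cxcl9, Ccl5, Cxcl10 and Cxcr6, with Cxcl9 on the low-iodine and Ccr7 on the normal diet well above background on 1 KO2 array each; the WT 2 columns are redder than their neighbours.

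On the low-iodine diet, the KO2 thyroids had lower levels of 3 inflammatory CC ligands and 1 CC receptor. The ligands were Ccl4, which attracts T cells and monocytes, Ccl12, a mouse CCR2 ligand that attracts monocytes, and Ccl9, a CCR1 ligand of myeloid cells. The receptor was Ccr2, which inflammatory monocytes carry. These 4 of 46 members (8.7%) passed an adjusted p of 0.05 in limma, all of them lower and 0 higher; of all genes 15% passed, 7.8% as higher and 7.16% as lower. At an unadjusted p of 0.05, 11 members and 28.2% of all genes passed. The difference was below 0, passing or not, for 37 members (80.4%), against 51.8% of all genes. Its median was −0.32 among members and −0.02 among all genes. WT replicate 2, the array that stood apart, gave the highest WT level for 32 of the 46 members. Without it the Cxcl1 difference moved from −0.23 to 0.004. For Cxcr2 the KO2 arrays (−1.91 to −1.89) lay above the other WT arrays (−2.29 to −2.03). The 4 members that passed stayed below 0 without it. The share below 0 and the median thus depended in part on that array, and neither was tested without it.

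Ccl12 and Ccl9 lie on chromosome 11, as do 14 of the members and 3 of the 4 that were lower. Ccr2 lies on chromosome 9, as do 10 of the members. The 250 bases before the transcription start of the ligands that had an entry are printed from RefSeq (mouse build GRCm38.p6), because their letters allow the NF-kB, AP-1, interferon-response and TATA motifs to be looked for beside the levels. The Ccl12 stretch is chr11:82101595-82101844 on the plus strand and the Ccl9 stretch is chr11:83578637-83578886 on the minus strand. Each reads 5′ to 3′ towards the start, and capitals mark motif matches on either strand.
Ccl12: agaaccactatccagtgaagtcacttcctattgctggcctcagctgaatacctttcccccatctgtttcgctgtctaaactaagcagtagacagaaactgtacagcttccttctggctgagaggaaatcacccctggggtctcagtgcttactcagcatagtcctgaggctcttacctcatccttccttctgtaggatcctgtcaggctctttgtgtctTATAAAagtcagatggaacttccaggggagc
Ccl9: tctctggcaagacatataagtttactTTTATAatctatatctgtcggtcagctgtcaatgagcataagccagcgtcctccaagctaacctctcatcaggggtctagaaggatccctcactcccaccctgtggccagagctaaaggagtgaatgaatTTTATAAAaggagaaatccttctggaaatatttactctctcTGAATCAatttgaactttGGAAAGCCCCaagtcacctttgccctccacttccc
The Ccl12 capitals are a TATA motif (TATAAA) 31 to 26 bases before the start. The Ccl9 capitals are TATA motifs at 224 to 219 bases and, overlapping, at 94 to 89 and 92 to 87 bases, an AP-1 motif (TGANTCA) at 53 to 47 bases and an NF-kB motif at 35 to 26 bases. A match is a description of letters, not of binding. Among 32851 mouse promoters of the same length, 3.9% held the NF-kB motif, 6.75% the AP-1 motif, 2.98% the interferon-response motif (GAAA, any 2 bases, GAAA) and 12.4% the TATA motif. Of the 35 members in that table, 6 (17.1%) held the NF-kB motif, 4 (11.4%) AP-1, 3 (8.57%) the interferon-response motif and 8 (22.9%) TATA.

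Ccl4 read −4.67, −5.65, −5.27 and −4.26 on the 4 KO2 low-iodine arrays, against −2.41, −2.40, −2.86 and −2.06 on the 4 WT low-iodine arrays. Every KO2 array was below every WT array, and the KO2 spots were well above background on replicates 1 and 4 alone. The difference was −2.54 ± 0.47 (SE; adjusted p = 0.0019 in limma), and within the slides it was −2.06 and −3.01. Ccl4 read −4.80, −3.89, −4.12, −2.46 and −5.10 on KO2 arrays, against −3.41, −2.36, −2.63, −3.10 and −3.88 on WT arrays of the normal diet. Those groups overlapped through KO2 replicate 4, the highest of its group (difference −0.99 ± 0.42, adjusted p = 0.314).

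Ccl12 read −6.95, −5.82, −3.77 and −3.10 in KO2, against −2.04, −1.33, −1.78 and −1.87 in WT thyroids on the low-iodine diet. The WT values lay close together and the KO2 values were spread, with no overlap, and KO2 spots were well above background on replicates 3 and 4 alone. The difference was −3.16 ± 0.76 (adjusted p = 0.0103), and −3.34 and −2.97 within the slides. Normal-diet levels of Ccl12 were −4.94, −1.50, −3.71, −2.16 and −3.97 in KO2, against −3.31, −2.17, −2.51, −3.34 and −3.20 in WT thyroids. The KO2 values there ran above and below all of the WT values (difference −0.35 ± 0.68). With normexp background correction, which compresses dim spots, the low-iodine differences were −0.96 for Ccl4 and −1.25 for Ccl12, both still past the threshold.

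Ccl9 read 1.39, 0.30, 0.35 and 1.28 in KO2, against 2.22, 2.12, 1.80 and 1.24 in WT thyroids on the low-iodine diet. KO2 replicates 2 and 3 were lowest, and WT replicate 4 lay within the KO2 range. The difference was −1.01 ± 0.31 (adjusted p = 0.0379), and −0.84 and −1.19 within the slides. Normal-diet levels were −0.38, 0.72, 0.17, 0.29 and 0.69 in KO2, against −0.02, 0.41, 0.93, 0.16 and 0.23 in WT thyroids, and the groups overlapped (difference −0.05 ± 0.28).

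Ccr2 read −1.92, −3.34, −3.03 and −1.88 in KO2, against −1.19, −0.61, −1.19 and −2.17 in WT thyroids on the low-iodine diet. The same KO2 replicates 2 and 3 that were low for Ccl9 were low here, and WT replicate 4 lay within the KO2 range. The difference was −1.25 ± 0.38 (adjusted p = 0.0332), and −1.0 and −1.51 within the slides. A second Ccr2 probe differed by −1.66. Normal-diet levels of the used probe were −2.54, −2.18, −2.57, −2.85 and −2.41 in KO2, against −3.10, −1.94, −2.19, −2.71 and −3.19 in WT thyroids, with overlap (difference 0.12 ± 0.34).

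The Ccr2 and Ccl9 calls depended on single arrays. Without WT replicate 2, which stood apart, Ccr2 differed by −1.03 (adjusted p = 0.0978) and Ccl9 by −0.92 (adjusted p = 0.0906). Without WT replicate 1, WT replicate 3, KO2 replicate 2 or KO2 replicate 3 the Ccr2 differences were −1.22, −1.22, −0.99 and −1.09 and the Ccl9 differences −0.89, −1.03, −0.84 and −0.85, none of them past the threshold. Ccl4 and Ccl12 stayed past it without WT replicate 2, at −2.53 and −3.01 (adjusted p = 0.00519 and 0.027). Fitted with slide as a block, all 4 members stayed past the threshold, and Ccl6 (−1.06, adjusted p = 0.0232) and Cxcl16 (1.06, adjusted p = 0.0446) passed as well. Fitted on the 8 low-iodine arrays alone, 6 members passed, of which 2, Ccl4 and Ccl12, were among the 4; Ccr2 and Ccl9 had adjusted p values of 0.118 and 0.103, while Ccl17, Ccl2, Ccl21a and Ccl8 passed at 0.00117, 0.014, 0.03 and 0.0391.

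**Figure D2:**
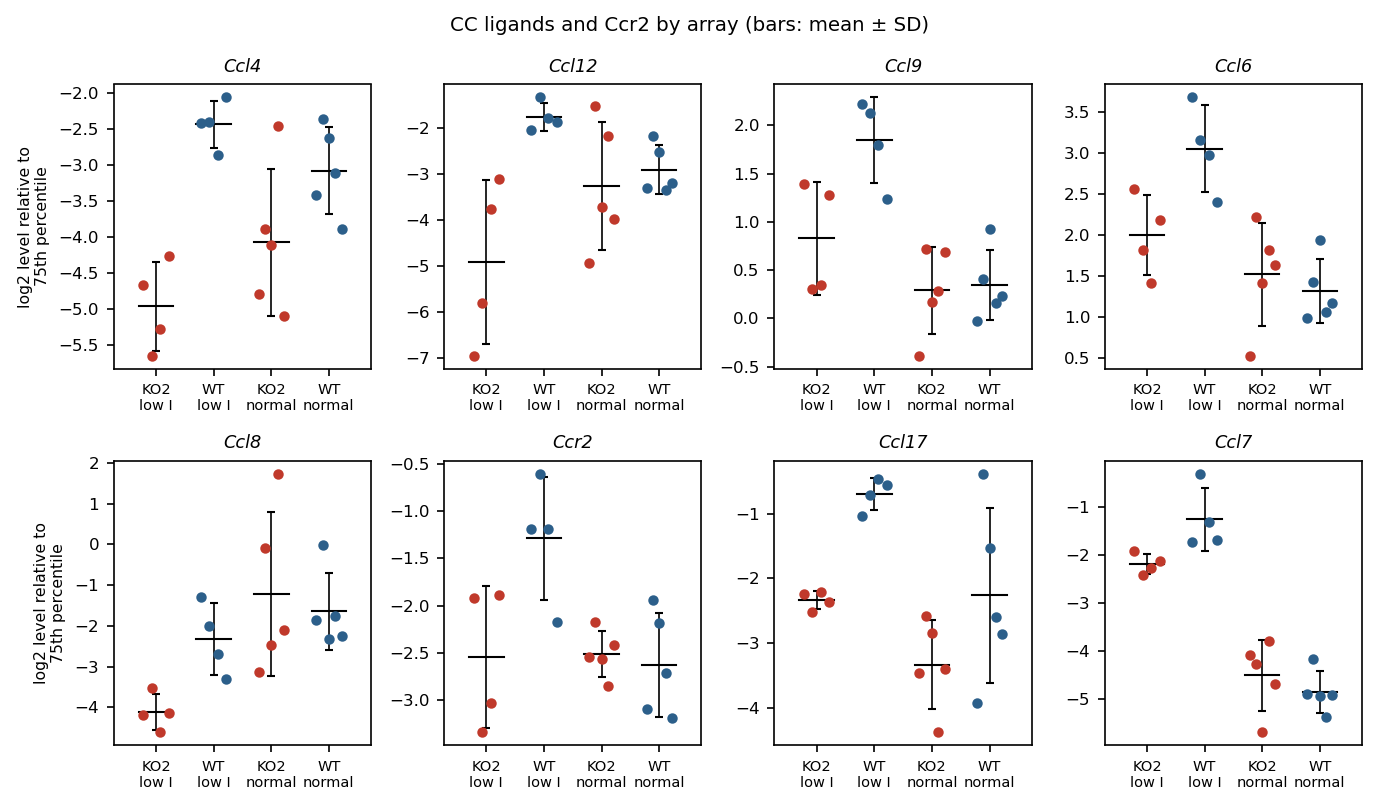
Points are arrays, the horizontal line is the group mean and the bar is 1 SD; the y axis gives the level (log2, 75th percentile at 0), and each panel is 1 gene. On the low-iodine diet Ccl4, Ccl12, Ccl8, Ccl17 and Ccl7 separated KO2 from WT arrays without overlap, while Ccl9, Ccl6 and Ccr2 overlapped through 1 array.

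Several other ligands did not pass the test although their arrays separated. Members whose 4 KO2 arrays all lay below the 4 WT arrays were Ccl12, Ccl17, Ccl2, Ccl21a, Ccl4, Ccl7 and Ccl8, 7 of 46 (15.2%), against 9.06% of all genes; the reverse held for 0 members and 10.7% of all genes. Ccl2, the main CCR2 ligand, read −0.36, −0.83, −0.44 and −0.60 in KO2, against 0.19, 0.97, 0.45 and 0.71 in WT thyroids. Its spread on the normal diet, −3.25 to 0.80 in KO2 and −4.72 to −2.10 in WT thyroids, was far wider than on the low-iodine diet and entered the shared error. The low-iodine difference was −1.14 ± 0.70 (adjusted p = 0.326).

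Ccl7, a further monocyte attractant, had probes that disagreed in size. The used probe read −1.93, −2.42, −2.28 and −2.14 in KO2, against −1.73, −0.32, −1.32 and −1.70 in WT thyroids, a difference of −0.93 (adjusted p = 0.112). The second probe read −4.32, −5.12, −5.17 and −4.42 in KO2, against −0.71, −0.53, −0.87 and −1.38 in WT thyroids, a difference of −3.89. Both probes put all KO2 arrays below all WT arrays. With the mean of both probes Ccl7 differed by −2.41 (adjusted p = 3.06e-04).

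Ccl17, a CCR4 ligand made by dendritic cells, read −2.24, −2.51, −2.21 and −2.37 in KO2, against −1.04, −0.71, −0.47 and −0.56 in WT thyroids on the low-iodine diet. The groups stood well apart, and the difference of −1.64 ± 0.54 had an adjusted p of 0.0522 in limma. Ccl8, an inflammatory CC ligand, differed by −1.79 ± 0.83 (adjusted p = 0.168). Ccl6, a myeloid CCR1 ligand, read 2.57, 1.82, 1.42 and 2.19 in KO2, against 3.68, 3.17, 2.98 and 2.41 in WT thyroids, where KO2 replicate 1 lay above WT replicate 4. Its difference was −1.06 ± 0.35 (adjusted p = 0.0516). Ccl6 levels on the normal diet were 0.53, 2.22, 1.41, 1.82 and 1.63 in KO2, against 0.99, 1.43, 1.95, 1.06 and 1.17 in WT thyroids, with overlap (difference 0.20 ± 0.31).

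Over the role groups on the low-iodine diet, 3 of 12 inflammatory CC ligands were lower (median difference −0.97) and 1 of 10 CC receptors was lower (median −0.54). The share of all genes that passed as lower was 7.16%. WT low-iodine replicate 2, the array that stood apart, gave the highest WT level for each of the 10 CC receptors. For Ccr4 it read −2.49, while the other WT arrays (−5.15 to −4.93) lay within the KO2 range (−5.87 to −4.66). The CC receptor median thus depended in part on that array, and neither median was tested without it. It also includes Ccr7, which no KO2 low-iodine array detected. None of the 2 CXCR2 ligands, 2 CXCR3 ligands, 6 other CXC ligands, 6 lymphoid, dendritic and epithelial CC ligands, 2 C and CX3C ligands and 6 CXC and CX3C receptors passed in limma. Of these 24 members 4 passed an unadjusted p of 0.05, against 28.2% of all genes. Ccl11, an eosinophil attractant, differed by 0.20 ± 0.22, and Ccl3, an inflammatory ligand related to Ccl4, by −0.13 ± 0.78 with its KO2 spots well above background on 1 array. The largest positive difference among members was that of Cxcl16, a membrane-bound ligand of CXCR6, which read 1.09, 0.74, −0.39 and 0.94 in KO2, against 0.18, −0.97, −0.54 and −0.52 in WT thyroids. KO2 replicate 3 lay among the WT arrays, and the difference was 1.06 ± 0.37 (adjusted p = 0.0645), while a second probe gave 0.22.

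**Figure D3:**
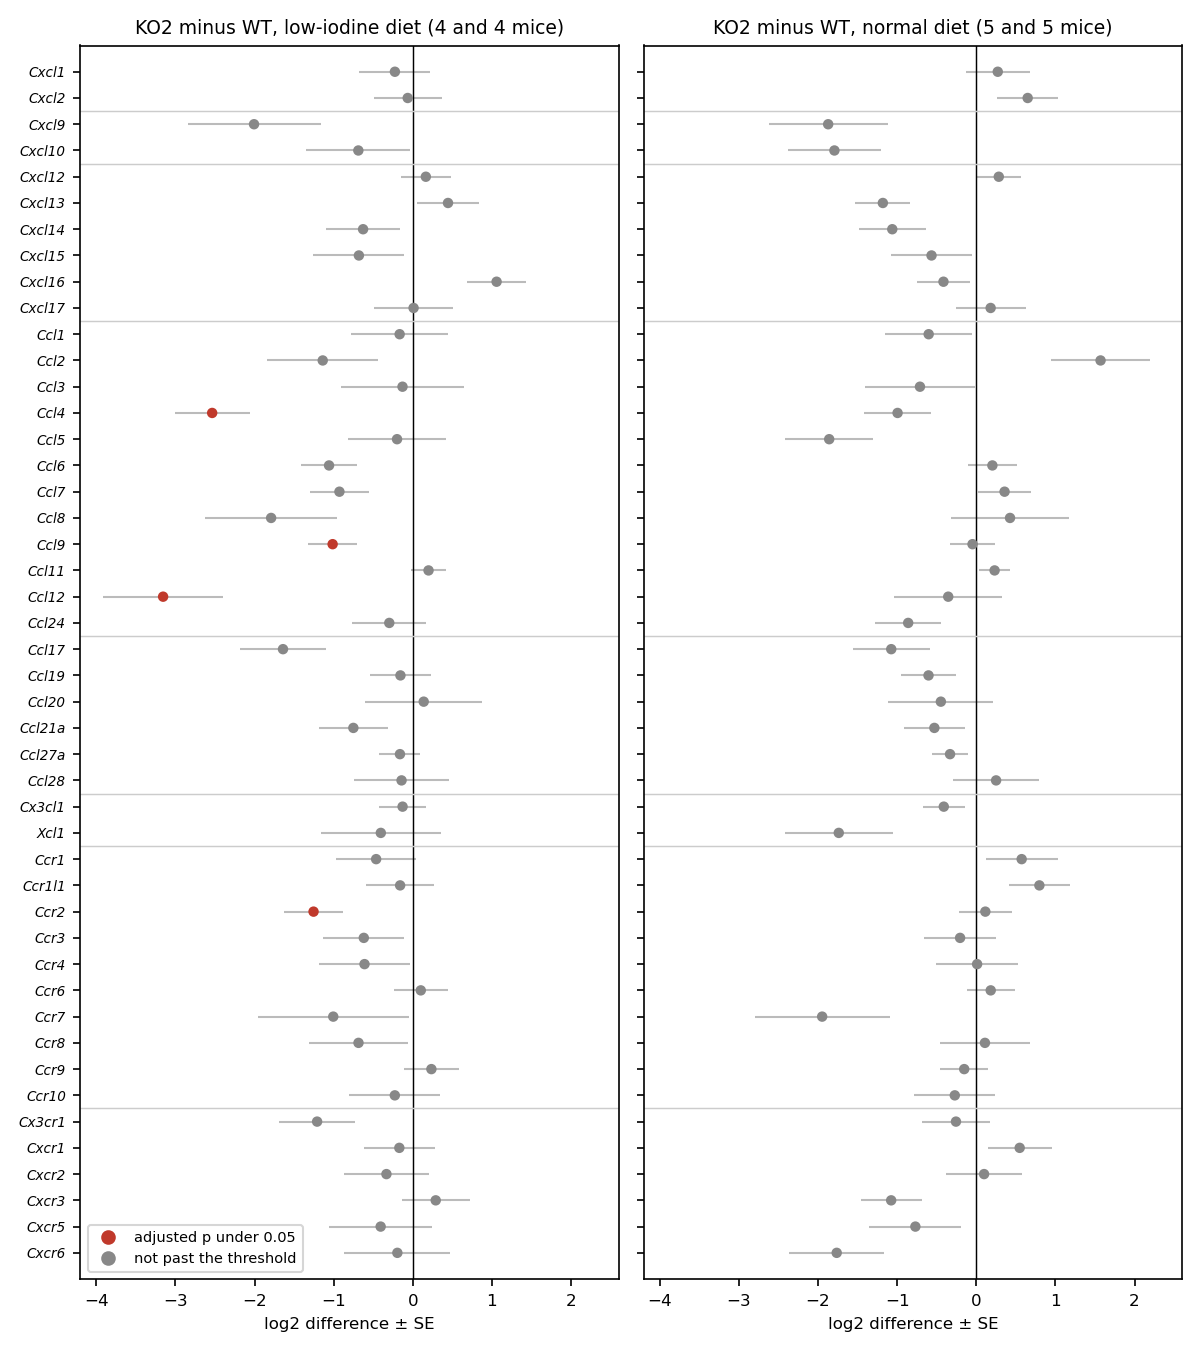
Points give the log2 difference of KO2 minus WT for each of the 46 members and bars give its SE, with the low-iodine diet left and the normal diet right; red points passed an adjusted p of 0.05. The 4 red points, Ccl4, Ccl9, Ccl12 and Ccr2, lie left of 0 on the low-iodine diet, and no point is red on the normal diet.

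On the normal diet 0 of 46 members passed an adjusted p of 0.05 in limma, against 1.41% of all genes (0.513% higher and 0.898% lower), and 12 members and 13.2% of all genes passed an unadjusted p of 0.05. Those 12 became 6 without WT normal-diet replicate 2 or without KO2 normal-diet replicate 1. The difference was below 0 for 28 members (60.9%), against 43.7% of all genes, and its median was −0.30 among members and 0.04 among all genes. The smallest p values, none of them past the threshold, belonged to Cxcl13, which attracts B cells, Ccl5, which attracts T cells, Cxcl10, an interferon-induced CXCR3 ligand, and Cxcr6 and Cxcr3, receptors of activated T cells, all with differences below 0. Ccl2, the monocyte attractant, differed the other way, by 1.57 ± 0.62 (adjusted p = 0.27). Cxcl10 was the 1 member (2.17%) whose KO2 arrays all lay below the WT arrays, against 1.66% of all genes; the reverse held for 0 members and 1.86% of all genes.

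The 250 bases before the starts of both measured CXCR3 ligands, which both lie on chromosome 5, are shown to compare them. The Cxcl10 stretch is chr5:92348890-92349139 and the Cxcl9 stretch is chr5:92328080-92328329, both on the minus strand of GRCm38.p6, from RefSeq, with motif matches on either strand in capitals.
Cxcl10: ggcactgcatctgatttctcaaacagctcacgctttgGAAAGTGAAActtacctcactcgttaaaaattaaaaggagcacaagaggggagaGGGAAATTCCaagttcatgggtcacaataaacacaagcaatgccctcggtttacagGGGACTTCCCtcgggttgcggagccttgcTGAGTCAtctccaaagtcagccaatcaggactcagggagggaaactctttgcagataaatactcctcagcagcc
Cxcl9: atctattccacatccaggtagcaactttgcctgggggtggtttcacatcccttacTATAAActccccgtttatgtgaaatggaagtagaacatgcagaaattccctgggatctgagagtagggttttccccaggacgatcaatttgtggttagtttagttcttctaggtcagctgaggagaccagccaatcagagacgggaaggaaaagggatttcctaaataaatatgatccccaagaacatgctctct
The Cxcl10 capitals are an interferon-response motif 213 to 204 bases before the start, NF-kB motifs at 159 to 150 and 103 to 94 bases, and an AP-1 motif at 74 to 68 bases. The Cxcl9 capitals are a TATA motif at 195 to 190 bases.

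Cxcl10 read −0.81, −2.52, −1.96, −2.22 and −3.18 on KO2, against −0.42, 0.30, −0.67, −0.28 and −0.66 on WT normal-diet arrays. No KO2 array reached the lowest WT array. The difference was −1.79 ± 0.59 (adjusted p = 0.165), and it was −2.10, −1.90 and −1.53 within slides 1, 2 and 3. It passed the threshold with normexp background correction (−1.31, adjusted p = 0.0193) and when KO2 low-iodine replicate 3, the array with the lowest Cxcl10 level, was left out of the shared fit (adjusted p = 0.0262). Low-iodine levels of Cxcl10 were −2.89, −3.29, −6.29 and −2.34 in KO2, against −3.43, −2.27, −3.49 and −2.86 in WT thyroids. The groups overlapped apart from KO2 replicate 3, whose spot was not well above background (difference −0.69 ± 0.66).

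Cxcl9, the second interferon-induced CXCR3 ligand, differed by −1.87 ± 0.75 on the normal diet (adjusted p = 0.278) and by −2.01 ± 0.84 on the low-iodine diet (adjusted p = 0.124). Its low-iodine spots were well above background on 1 KO2 and 3 WT arrays. Cxcr3, the receptor of both, read −4.04, −2.65, −3.65, −2.35 and −3.97 in KO2, against −3.18, −1.24, −2.06, −1.76 and −3.05 in WT thyroids on the normal diet. The groups overlapped, and the difference was −1.07 ± 0.39 (adjusted p = 0.214). Low-iodine levels of Cxcr3 were −2.42, −2.11, −2.28 and −1.81 in KO2, against −2.44, −1.99, −2.87 and −2.47 in WT thyroids, with overlap (difference 0.29 ± 0.43).

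Cxcl13 differed by −1.18 ± 0.35 on the normal diet (adjusted p = 0.112) and by −1.60, −1.10 and −1.05 within the 3 slides. It ranged between 0.42 and 2.31 in KO2 and between 1.43 and 3.13 in WT thyroids, and KO2 replicates 4 and 5 lay inside the WT range. It passed the threshold without KO2 replicate 4 (−1.46, adjusted p = 0.0141), and so did Ccl4 (−1.40, adjusted p = 0.0352). Ccl5 differed by −1.86 ± 0.56 (adjusted p = 0.121) and passed without KO2 replicate 2 (−2.28, adjusted p = 0.0475). Cxcr6, the receptor of Cxcl16, differed by −1.76 ± 0.60 (adjusted p = 0.182). Without WT replicate 2, the highest WT array for most members, the differences were −1.10 for Cxcl13, −1.37 for Ccl5, −1.63 for Cxcl10, −1.32 for Cxcr6 and −0.82 for Cxcr3 (adjusted p = 0.226, 0.249, 0.3, 0.349 and 0.386).

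Some of these genes did not move alike on the slides. On slide 1, with 1 array per genotype, the KO2 level was above the WT level for Ccl5 (0.65), Cxcr6 (1.24) and Cxcr3 (0.52). On slides 2 and 3 the differences were −2.12 and −2.85 for Ccl5, −2.47 and −2.55 for Cxcr6 and −1.35 and −1.60 for Cxcr3. Ccr7, the receptor of Ccl19 and Ccl21a, was well above background on all 5 WT arrays and on 1 KO2 array, that of slide 1, where it was higher in KO2 by 2.40. Markers of T and NK cells and of thymic cells varied among the same arrays. Means over 9 T and NK cell markers ran between −4.64 and −2.50 in KO2 and between −3.46 and −0.79 in WT thyroids, with 0 of 9 past the threshold in limma, 4 of 9 at an unadjusted p under 0.05 and 1 not detected in KO2. Of all genes 13.2% had an unadjusted p under 0.05, and 0.898% passed the threshold as lower. Means over 5 thymic epithelium markers ran between −5.70 and −1.85 in KO2 and between −4.68 and 0.45 in WT thyroids, with 2 of 5 lower, Prss16 at −4.37 and Psmb11 at −5.19. Means over 4 thymocyte markers ran between −3.77 and −1.05 in KO2 and between −3.18 and 1.30 in WT thyroids, with 0 of 4 at an unadjusted p under 0.05. Slide 1 held KO2 replicate 2, the highest KO2 array for each of these lists, and WT replicate 1, the lowest WT array for the thymic epithelium list. The part of these cells in the chemokine values was not tested.

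**Figure D4:**
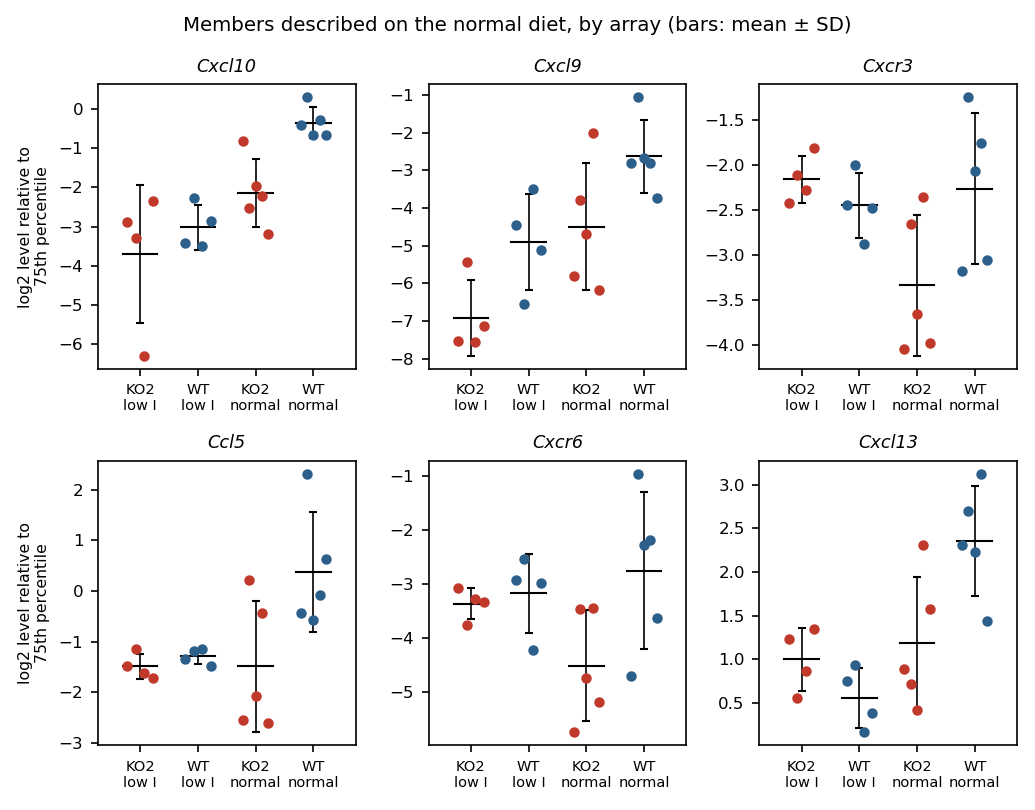
Points are arrays, the horizontal line is the group mean and the bar is 1 SD; the y axis gives the level (log2, 75th percentile at 0). On the normal diet all KO2 arrays lie below all WT arrays for Cxcl10, and the groups overlap for Cxcl9, Cxcr3, Ccl5, Cxcr6 and Cxcl13.

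Among the homeostatic members, Cxcl12, the stromal ligand that retains leukocytes in tissue, read 5.30, 4.67, 5.12 and 5.42 in KO2, against 5.08, 4.74, 4.93 and 5.10 in WT thyroids on the low-iodine diet. On the normal diet it read 2.55, 3.14, 3.12, 2.13 and 2.24 in KO2, against 1.40, 3.00, 2.68, 2.68 and 2.0 in WT thyroids. The genotypes overlapped on both diets, with differences of 0.17 ± 0.31 and 0.28 ± 0.28. A second probe, matched to another Cxcl12 transcript, differed by −0.82 on the low-iodine diet and by −0.13 on the normal diet.

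Ccl21a, a lymphatic ligand of CCR7 whose near-identical copies may share the probe, read −0.16, 0.36, 0.34 and 0.24 in KO2, against 1.00, 1.07, 0.88 and 0.84 in WT thyroids on the low-iodine diet. The arrays did not overlap, and the difference of −0.75 ± 0.43 had an adjusted p of 0.292. Its normal-diet levels were 1.14, 2.64, 0.21, 2.58 and 1.56 in KO2, against 1.24, 2.95, 2.35, 2.24 and 1.98 in WT thyroids, with overlap. Its receptor Ccr7 was well above background on 0 of 4 KO2 and 2 of 4 WT low-iodine arrays, so no low-iodine level is given for KO2.

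Cx3cl1, a membrane-anchored ligand of the monocyte receptor Cx3cr1, read 1.31, 0.50, 0.74 and 1.24 in KO2, against 0.99, 1.33, 0.81 and 1.18 in WT thyroids on the low-iodine diet. Its normal-diet levels were 2.45, 2.26, 2.86, 2.57 and 2.35 in KO2, against 2.05, 3.51, 3.22, 3.41 and 2.36 in WT thyroids. The genotypes overlapped on both diets. Cx3cr1 differed by −1.21 ± 0.48 on the low-iodine diet (adjusted p = 0.105), where 3 of 4 KO2 arrays detected it.

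Cxcl1, a neutrophil attractant that binds CXCR2, read −0.54, −1.22, −1.87 and −0.94 in KO2, against −1.50, −0.22, −0.81 and −1.13 in WT thyroids on the low-iodine diet. Its normal-diet levels were −3.73, −4.36, −4.15, −6.22 and −5.55 in KO2, against −5.06, −5.20, −5.33, −5.10 and −4.67 in WT thyroids. The genotypes overlapped on both diets, while all low-iodine arrays lay above all normal-diet arrays. Ccr9, a receptor known from thymocytes and gut lymphocytes, showed the opposite order. It read −4.12, −3.43, −3.88 and −3.40 in KO2, against −4.29, −2.87, −4.28 and −4.33 in WT thyroids on the low-iodine diet. It read −0.02, −0.58, −0.07, −0.60 and −0.60 in KO2, against 0.25, −0.27, −0.89, −0.66 and 0.46 in WT thyroids on the normal diet.

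The low-iodine and normal-diet arrays differed for most genes on the array, with 74.3% of all genes past the threshold in KO2 (37.5% higher, 36.8% lower) and 75.9% in WT mice (39.4% higher, 36.5% lower), and levels correlated at 0.73 to 0.83 across the diets. Of the members, 26 (56.5%) passed in KO2, 16 higher and 10 lower, and 30 (65.2%) in WT mice, 19 higher and 11 lower. That balance turned with the scaling: it was 13 higher and 17 lower in KO2 and 13 higher and 20 lower in WT mice with median scaling, and 10 higher and 17 lower in KO2 and 14 higher and 20 lower in WT mice with quantile normalization. In both genotypes 13 members were higher, 8 were lower and 0 went opposite ways. Both measured CXCR2 ligands were among the higher ones. Cxcl1 differed by 3.66 ± 0.43 in KO2 and by 4.16 ± 0.43 in WT mice. Cxcl2, the second neutrophil attractant, was well above background on all low-iodine arrays and on 0 normal-diet arrays, which makes it at least 3.93-fold higher in KO2 and at least 6.27-fold higher in WT mice. Such a bound sets the mean of the bright group against the mean, over the dim arrays, of the lowest signal called well above background there or the probe's own signal, whichever was higher.

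Ccl1, Ccr1, Ccr8 and Cxcr1 were likewise seen on low-iodine arrays alone. Every low-iodine array had a larger share of all spots well above background than any normal-diet array. The lower members included Ccr9, by −3.33 in KO2 and −3.72 in WT mice, Cx3cl1, by −1.55 in KO2 and −1.83 in WT mice, and Ccl27a, an epithelial ligand of CCR10, by −1.80 in KO2 and −1.97 in WT mice. Detection on either set of arrays chose the members, so these counts describe them and support nothing, and the diet cannot be told apart from the slides and the scanner.

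The interaction, the KO2 minus WT difference on the low-iodine diet minus that on the normal diet, asks whether the genotype difference itself changed with the diet. In limma 0 of 46 members passed, against 1.23% of all genes (0.865% lower), and 10 members and 14.3% of all genes passed an unadjusted p of 0.05. The smallest p values belonged to Cxcl13 (1.62 ± 0.52, adjusted p = 0.146), Cxcl16 (1.47 ± 0.50, adjusted p = 0.173) and Ccl2 (−2.71 ± 0.94, adjusted p = 0.189). Ccl12 followed with −2.80 ± 1.02 (adjusted p = 0.214). So the 4 members that were lower in KO2 on the low-iodine diet were not shown to differ in that respect between diets.

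Genes that act with the chemokines fell into 4 lists of 69 measured genes. In the normal-diet comparison 0 of them passed the adjusted threshold in limma, against 1.41% of all genes. There 17 of the 69 passed an unadjusted p of 0.05, against 13.2% of all genes. The values that follow are those of the low-iodine comparison, in which 7.8% of all genes passed as higher and 7.16% as lower. Of 12 atypical receptors and chemokine binders, 1 was higher and 3 were lower (median −0.48). Ackr2, a decoy receptor that scavenges inflammatory CC chemokines, read −3.52, −3.08, −3.01 and −3.36 in KO2, against −0.58, −0.57, −0.64 and 0.31 in WT thyroids. No array of either group came near the other group, and the difference was −2.88 ± 0.23 (adjusted p = 2.32e-06). Ackr2 levels on the normal diet were −1.88, −1.52, −2.07, −1.26 and −1.35 in KO2, against −1.71, −1.69, −1.77, −1.95 and −2.15 in WT thyroids, with overlap. The interaction passed at −3.12 ± 0.31 (adjusted p = 1.23e-04). Ackr3, which scavenges CXCL12, fell by 1.72 ± 0.40 on the log2 scale (adjusted p = 0.00858), Ackr1, a binder of many chemokines on venules, differed by −1.39, and Cmklr1, the chemerin receptor, was higher by 0.75 ± 0.17 (adjusted p = 0.00835).

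Of 24 measured upstream cytokines and factors, 3 were higher and 1 was lower on the low-iodine diet. Nfkbia, the inhibitor that NF-kB itself induces, read 4.23, 3.21, 3.05 and 4.00 in KO2, against 2.01, 1.74, 1.54 and 2.15 in WT thyroids. The groups did not overlap, and the difference was 1.76 ± 0.28 (adjusted p = 5.50e-04). Il6, an inflammatory cytokine, was well above background on 0 of 4 KO2 and 4 of 4 WT low-iodine arrays, at −4.76, −3.30, −3.97 and −3.79 in WT thyroids, which makes it at least 2.78-fold lower in KO2 (adjusted p = 1.18e-04). It was not well above background on any normal-diet array, and with normexp background correction its difference of −0.57 did not pass (adjusted p = 0.109). Irf8, a myeloid transcription factor, was higher by 0.61 ± 0.16 (adjusted p = 0.0183), and Rela, a subunit of NF-kB, was also higher by 0.61. Irf8 did not pass with the mean of its probes (0.33, adjusted p = 0.245), no scaling (0.34, adjusted p = 0.383) or median scaling (adjusted p = 0.0971). Nor did it pass on the low-iodine arrays alone (adjusted p = 0.0618) or without WT replicate 2 (0.0539) or KO2 replicate 4 (0.0581).

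Of 20 receptor signalling genes, 1 was higher and 3 were lower on the low-iodine diet. Rgs2, which shortens G protein signals, was higher by 1.19 ± 0.25, Gnai2, the inhibitory G protein subunit through which chemokine receptors signal, differed by −1.07 ± 0.22, and Gng2, a G protein subunit, by −1.54 ± 0.34 (adjusted p = 0.0039, 0.00393 and 0.00615). Of 13 adhesion genes, 2 were lower, Itgb2 (−1.0 ± 0.26) and Itgam (−0.88 ± 0.25), which together form an integrin of myeloid cells. Neither passed with median scaling (adjusted p = 0.0791 for Itgb2 and 0.145 for Itgam), and Itgam did not pass with the mean of its probes (0.143) or without KO2 replicate 2 (0.072), KO2 replicate 3 (0.055), WT replicate 1 (0.0671) or WT replicate 3 (0.0531). The lower genes of the signalling and adhesion lists, 3 of 20 and 2 of 13, were a larger share than the 7.16% of all genes. The higher genes of the cytokine list, 3 of 24, were a larger share than the 7.8% of all genes. In the other direction the shares, 1 of 20, 0 of 13 and 1 of 24, were smaller than those of all genes. These small counts were not tested against the shares of all genes.

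Of the leukocyte marker lists on the low-iodine arrays, those of T and NK cells (9 genes), B cells (7) and mast cells (5) had 0 genes past the threshold in limma. Among all genes 7.8% passed as higher and 7.16% as lower. Means over 7 dendritic cell markers ran between −3.85 and −3.05 in KO2 and between −2.87 and −1.91 in WT thyroids, without overlap, and 2 of 7 were lower, H2-DMb2 at −3.08 and Itgax at −2.21, with 1 not detected in KO2. Means over 10 macrophage markers ran between −0.98 and −0.11 in KO2 and between −0.41 and 0.12 in WT thyroids, with 1 of 10 past the threshold, Cd163, which was higher by 0.70. The median macrophage difference was −0.65. Means over 7 neutrophil markers ran between −3.10 and −1.77 in KO2 and between −4.44 and −2.41 in WT thyroids, and 3 of 7 were higher, S100a9 at 2.63, S100a8 at 2.77 and Retnlg at 2.19. S100a8 was well above background on 2 of 4 WT arrays. The difference was above 0 for 4 of the 7 neutrophil markers (median 0.57), and Ngp, Camp and Mmp8 differed by −0.59, −0.35 and −0.09. On the normal diet 1 of the 7 neutrophil markers, S100a9, also passed as higher in limma (1.62, adjusted p = 0.028). The part of these cells in the chemokine and receptor values was not tested.

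**Figure D5:**
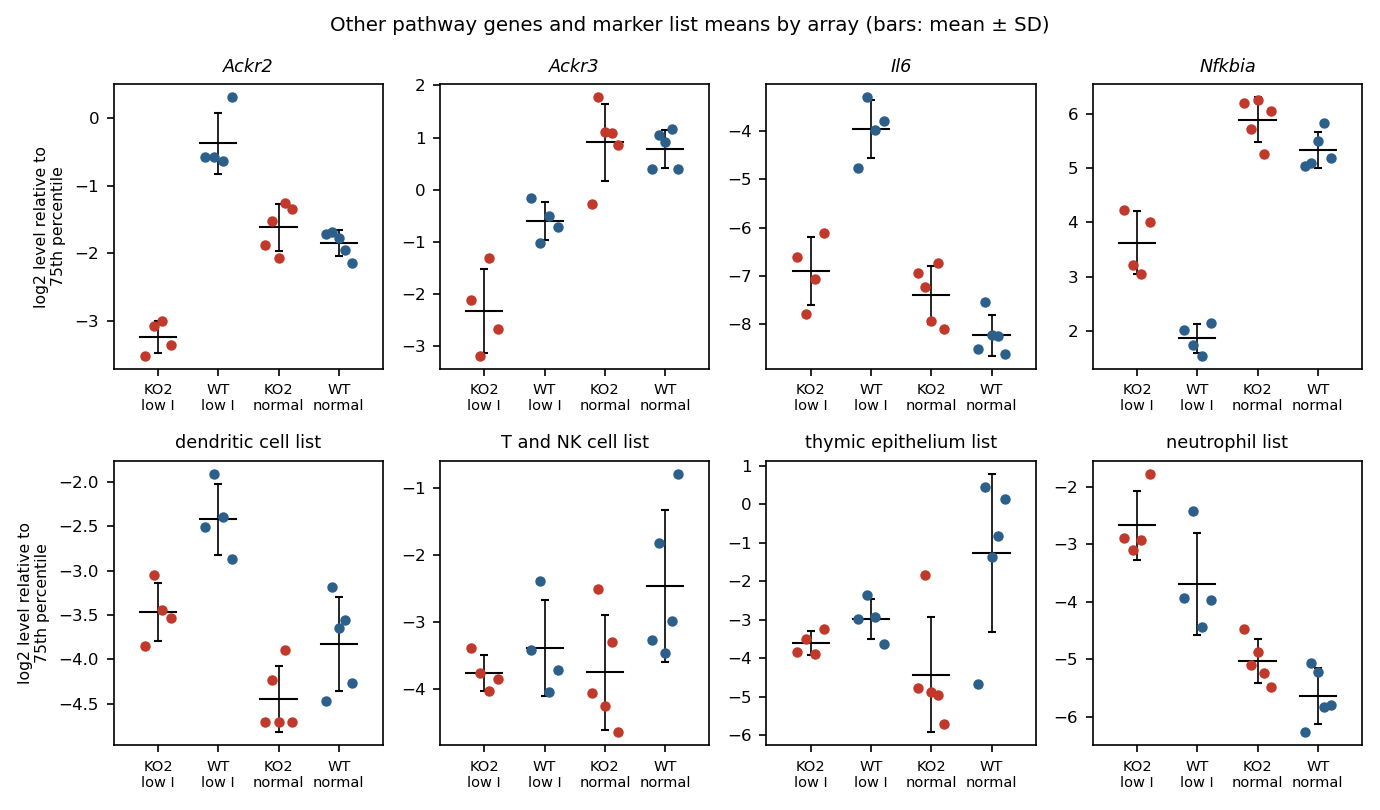
Points are arrays, the horizontal line is the group mean and the bar is 1 SD; the y axis gives the level (log2, 75th percentile at 0), for 4 genes and for the mean of 4 marker lists. On the low-iodine diet Ackr2, Ackr3 and the dendritic cell list were lower and Nfkbia was higher on all KO2 arrays than on all WT arrays, and the Il6 points of KO2 were not above background.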

How the data were processed

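Thyroid RNA of 18 samples was amplified, labelled with Cy3 and hybridised to 1-colour Agilent whole mouse genome arrays, per the labels' protocols. Spot intensities were background-subtracted and detrended by Agilent Feature Extraction 12 and deposited per array without scaling between arrays, per the file headers and the submitters' processing notes. The deposited summary table held the same values before scaling.

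From the deposited intensity (gProcessedSignal) the log2 of each array's 75th percentile over its non-control spots was subtracted on the log2 scale. Control spots and spots with outlier flags were left out, and spots of a probe were averaged. Of 41174 probes, 28223 (68.5%) matched 1 gene through their accessions, and 12951 matched none and were not used here. A probe had to be well above background on at least 4 of 18 arrays, and the brightest passing probe stood for its gene. limma 3.58.1 (R 4.3.3) fitted 4 group means to all 18 arrays, with Benjamini-Hochberg adjustment over 17929 genes and a threshold of 0.05. p-values measure the spread between these samples, each read as 1 mouse, and the number of arrays limits the precision. The fit was tested on simulated data.

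Members, lists and named genes were chosen with earlier results of these data known. Arrays are given by member for those past the threshold and for the member of each role group with the highest mean level; those of Ccl2, Ccl7, Ccl17 and Cxcl16 were added after their values were seen. Other settings tried were background correction by normexp with an offset of 50 (on median signals, as the files hold no mean signals), median and quantile scaling, no scaling, a minimum of 9 arrays, the mean of a gene's probes, slide and replicate blocks, separate fits and leaving out each array. A few members of the family are not reported here.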

Additional observations from a re-analysis of the deposited data

Results flagged for a closer look

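Single arrays stood far from the others of their group for 13 of 214 combinations of gene and group (46 members, in groups with at least 1 array well above background, and the called pathway genes, 57 genes in all), and chance alone gives about 1 in 20. Of the 13, 7 were on WT low-iodine replicate 2, the array with the raised median signal. On it the levels of 6 members were high: Ccl28 read −1.38 against −2.39 to −2.24 on the other 3 arrays, Ccr4 −2.49 against −5.15 to −4.93, Ccr9 −2.87 against −4.33 to −4.28, Cxcr1 −2.98 against −5.27 to −5.19, Cxcr2 0.27 against −2.29 to −2.03 and Cxcr5 −2.41 against −5.78 to −5.32. Cmklr1 was low there, at 1.59 against 1.79 to 1.83. None of the 6 members was past the threshold between genotypes.

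The other 6 were spread over 6 arrays. Xcl1 read −3.36 on KO2 low-iodine replicate 4, against −4.77 to −4.68 on the other 3. Cxcl14 read −4.14 on KO2 low-iodine replicate 1, against −2.12 to −1.82. Ackr2 read 0.31 on WT low-iodine replicate 4, against −0.64 to −0.57. Ccr7 read −2.85 on KO2 normal-diet replicate 2, against −6.78 to −5.74 on the other 4, which were not well above background, and Ccr3 read −4.53 on KO2 normal-diet replicate 5, against −3.56 to −3.25. Ccl8 read −0.02 on WT normal-diet replicate 2, against −2.33 to −1.76.

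The genotype difference itself differed between the diets for Ackr2, by −3.12 (adjusted p = 1.23e-04, limma interaction).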

How the results depend on the processing

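The count of members past the threshold on the low-iodine diet was 4. It was 2 with median scaling, 9 with quantile normalization (8 lower and 1 higher), and between 2 and 6 when 1 array was left out. It was 2 without KO2 low-iodine replicate 2 and without WT low-iodine replicate 2 or replicate 3. On the normal diet the count was 0. It was 1 with normexp background correction, 1 with no scaling, 3 with a replicate block (Ccl5, Cxcr3 and Cxcr6), and between 0 and 2 when 1 array was left out. For the interaction it was 0, 2 with the mean of all probes (Ccl7 and Ccr2), and 0 whichever array was left out. The diet counts lay between 23 and 26 in KO2 and between 29 and 31 in WT mice when 1 array was left out.

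Replicate numbers were not used to pair the samples in the main fit. Deviations of same-numbered arrays correlated at −0.04 to 0.32 on the normal diet and 0.03 to 0.13 on the low-iodine diet. Arrays of different numbers were not compared, so these values do not show whether the numbers pair the samples. With the replicate block 4 members passed on the low-iodine diet, 2 of them (Ccl4 and Ccl12) among the 4 above. Ccr2 and Ccl9 did not pass (adjusted p = 0.0778 and 0.0518), and Ccl17 and Ccl6 did (0.0189 and 0.039).

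Over single genes, 17 values changed sign, none of them past the threshold. Among normal-diet differences, leaving out 1 array gave between −0.793 and 0.065 for Ccl12 (0.065 without KO2 replicate 1), between −0.154 and 0.123 for Ccl9 (0.123 without KO2 replicate 1, 0.099 without WT replicate 3), between −0.026 and 0.286 for Ccr2 (−0.026 and −0.002 without WT replicates 5 and 1) and between −0.318 and 0.018 for Ccr9 (0.018 without WT replicate 5). Ccl9 read 0.007 with normexp and Ccr2 −0.036 with no scaling. Among low-iodine differences, leaving out 1 array gave between −0.249 and 0.019 for Cx3cl1 (0.019 without KO2 replicate 2), between −0.428 and 0.016 for Cxcl1 (0.016 without KO2 replicate 3, 0.004 without WT replicate 2) and between −1.14 and 0.174 for Cxcl10 (0.174 without KO2 replicate 3). Ccr9 read −0.088 with normexp and −0.028 with no scaling, Cx3cl1 0.021 with median scaling, and Cxcl12 −0.097 with no scaling and −0.329 with the mean of probes. Of the remaining values, 1662 kept their side of the threshold, 43 passed only under the alternative and 34 failed only under it.

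Counts over all genes moved as well: on the low-iodine diet 2683 genes passed, against 1635 with median scaling, 3838 with quantile normalization and 1676 with the 8 arrays alone, and on the normal diet 253 passed, against 167 with the replicate block and 3 with its 10 arrays alone. With no scaling the share of lower genes was 86.5% and 90.6% on the low-iodine and normal diets, against 47.9% and 63.6%. Median scaling moved the median of all genes between diets to −0.80 in KO2 and −0.91 in WT mice. The cause of these shifts was not tested. Dim spots limit Ccl4, Ccl12, Cxcl9, Ccr7 and Il6, and a dim spot limits Cxcl10 on KO2 low-iodine replicate 3.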

Other observations

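Some markers of other cell types differed between genotypes on the low-iodine arrays, where 7.8% of all genes passed as higher and 7.16% as lower. Of 6 endothelial markers, 3 were lower in KO2 (Tek −1.33, Cdh5 −1.47, Pecam1 −1.23), and the list mean ran between 0.84 and 1.16 in KO2 and between 1.56 and 1.94 in WT thyroids. Of 5 lymphatic markers, 2 were lower, Pdpn (−2.60) and Flt4 (−1.44), and 1 was higher, Mmrn1 (0.91). The lymphatic list mean ran between −2.78 and −2.54 in KO2 and between −2.15 and −1.38 in WT thyroids. Of 7 fibroblast markers, 2 were lower, Col1a1 (−3.91) and Col1a2 (−2.34), and 1 was higher, Dcn (0.99). Of 5 pericyte markers, 2 were lower, Cspg4 (−1.2) and Rgs5 (−1.22). Of the markers named here, Col1a1 (−1.82), Col1a2 (−1.21) and Mmrn1 (1.05) also passed on the normal diet, and the others did not. Endothelial, lymphatic and fibroblast cells are known sources or carriers of Cxcl12, Ccl21a and the atypical receptors Ackr1 and Ackr3. Their part in those values and in the Ackr2 difference was not tested.

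Probes of 1 gene differed in what they showed between the diets. In KO2 mice the low-iodine minus normal difference was −0.03 and 4.03 for the probes of Ccr2, −0.25 and 3.60 for Ccr3, −2.87 and 0.15 for Cx3cr1, 2.49 and −1.23 for Cxcl12, and −0.70 and 0.99 for Ccl24. In WT mice the same probes gave 1.34 and 6.02 for Ccr2, 0.16 and 3.93 for Ccr3, −1.92 and 0.62 for Cx3cr1, 2.61 and −0.53 for Cxcl12, and −1.26 and 0.58 for Ccl24. For Cxcl16 the probes gave 1.23 and −1.84 in KO2 mice and −0.24 and −2.19 in WT mice, and for Ccl7 2.32 and −0.01 in KO2 mice and 3.60 and 4.02 in WT mice, so the probe with the larger value was not the same one in both genotypes for Ccl7. Of the 10 members with 2 passing probes, these 7 are given because their probes differed in sign or by over 2 in at least 1 genotype.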
